A study of Drosophila melanogaster with 14 samples.

Results

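The daily cycle of RNA in heads of fmn flies was followed over the 7 arrays of this genotype, out of 14 arrays in the series, 1 array every 4 h between zeitgeber time (ZT) 0 and ZT 24. ZT 0 is lights-on and ZT 12 is lights-off. fmn (fumin) flies sleep little because of a mutation in DAT, the gene of the dopamine transporter, which takes dopamine back up after release. They had been backcrossed to the control strain w1118, whose 7 arrays at the same times served for comparison. The paper reports that the backcross did not make the region near DAT, which holds scb, alike in both strains. It also reports that base changes under a probe set of scb gave a falsely low signal in fmn. Differences in level between the genotypes given here were not checked for such changes. Flies of both genotypes were kept in cycles of 12 h light and 12 h dark for 4 cycles and frozen, and their heads were shaken off and sieved. Each array was hybridized with RNA from 1 pool of male and female heads, so that no time point was repeated. Only ZT 0 and ZT 24 share a position in the light cycle. The study's methods state an age for male flies only, and none for the pools of both sexes used on the arrays. Nothing says that the pools of different times came from separate cultures, and p-values measure only the spread of these 14 arrays around their fitted waves.

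The circadian clock of the fly is a feedback loop of transcription. The activators Clk and cyc switch on per and tim, whose proteins later enter the nucleus and stop the activators, and they also switch on vri and Pdp1, which act back on Clk. In the head this loop runs in clock neurons, in photoreceptors and in glia, and it drives daily programs of genes for vision, detoxification and metabolism. RNA from whole heads sums all of these cells. Here, fewer cells of a type and less RNA per cell cannot be told apart.

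The values are MAS5 signals of probe sets on a linear scale. For each probe set a 24 h cosine and sine were fitted to log2 signal in each genotype with limma over all 14 arrays. The fit gives an amplitude, which is the height of the fitted wave above its mean on the log2 scale, and a peak time, each with a standard error (SE) after ±. A probe set was called rhythmic when the F test of limma gave an adjusted p under 0.05 (Benjamini-Hochberg, over 8641 probe sets). A gene is given by its brightest probe set, and the peaks are described in 4 windows of 6 h, dawn (ZT 21 to 3), day (ZT 3 to 9), dusk (ZT 9 to 15) and night (ZT 15 to 21).

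DAT itself was near 0 on each fmn array, with signals of 9.3, 1.43, 13.6, 3.93, 10, 7.05 and 14.5 from ZT 0 to ZT 24. Control heads had 565, 562, 471, 539, 576, 619 and 551. The lowest control array was far above the highest fmn array, so the labels of all 14 arrays fit the targeted gene. DAT was too dim in fmn to pass the filter on low signals and was not tested for a rhythm.

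Of the fmn arrays, 3 stood apart from the others. At ZT 4, a signal of at least 100 was found for 31 of 62 marker genes of the testis and accessory gland, against 2 or 3 on the remaining fmn arrays. The accessory gland gene Acp98AB had a signal of 1487 at ZT 4 and 0.868 to 12.7 at the other fmn times. At ZT 8, 14 of 31 ovary markers reached 100, against 1 or 2 elsewhere in fmn, and Vm34Ca, a protein of the egg's vitelline membrane, had a signal of 3289 against 2.33 to 24.1 at the other fmn times. Markers of midgut digestion reached 100 for 14 of 48 genes at ZT 4 and 21 at ZT 8, against 3 on each other fmn array. The gut protease Jon65Aiv had 858 and 3465 at these times and at most 12.9 on the other fmn arrays. On the control array of ZT 0, 15 of the 48 midgut genes reached 100 and Jon65Aiv had 1329. The summed signal of the testis list ranged from 1480.2 to 12052 over the fmn arrays and from 1276 to 12402 over the control arrays, where the highest was that of ZT 0. The summed ovary list ranged from 823 to 9206 in fmn and from 925 to 1134 in control. These arrays thus held transcripts of abdominal organs, which a head should lack. Markers of neurons, photoreceptors, glia and fat body were present on all 14 arrays.

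**Figure D1:**
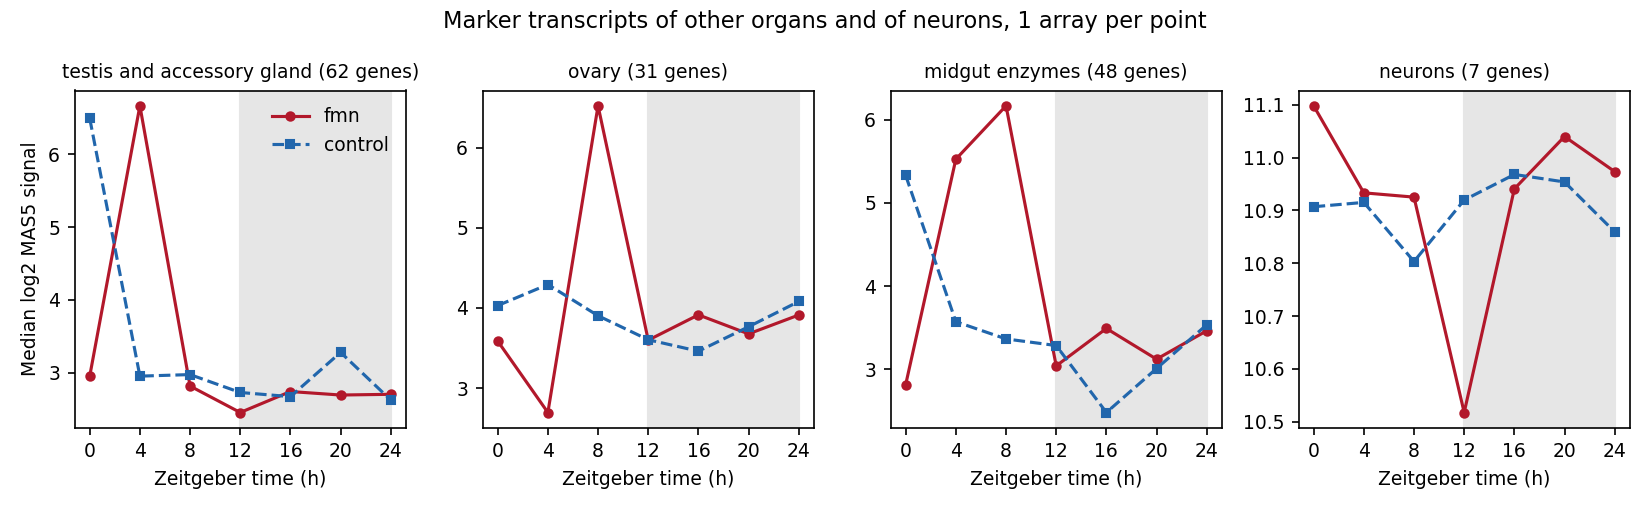
Median log2 MAS5 signal of marker genes of testis and accessory gland, ovary and midgut enzymes and of neurons on each array, with fmn as red circles, control as blue squares and the dark phase in grey. The testis list stands out at ZT 4 in fmn (6.67) and ZT 0 in control (6.50), the ovary list at ZT 8 in fmn (6.52), and the neuron list is low at ZT 12 in fmn (10.52).

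The fmn array of ZT 12 was atypical in another way. On it, 77 probe sets lay at least 2-fold from the mean of the other 6 fmn arrays, 59 of them lower and 18 higher, against 16 to 24 probe sets on each other fmn array. Of the 77, 28 were called rhythmic. Of the 49 that were not, 37 were low at ZT 12, and 36 of these were ones that the other fmn arrays held above control. Of the 12 that were high, 9 were ones that the other fmn arrays held below control. The mean of the other 6 fmn arrays enters both the selection at ZT 12 and the comparison with control. Probe sets so selected tend toward these directions, and the share over all probe sets was not computed. A wider set was the 51 probe sets at least 2-fold apart between the other 6 fmn arrays and control. On the ZT 12 array they kept a median of 0.756 of that difference, and 18 kept little or none of it. The same measure was 0.935 to 1.14 on each other fmn array. The array was thus not like control in general. For ftz-f1, a nuclear receptor, signals in fmn were 1367, 1273, 1532, 173, 1571, 1462 and 1318, and in control they ranged from 482 to 632. For elav, the RNA-binding protein that marks neurons, they were 2327, 2335, 2265, 612, 2259, 2228 and 2174 in fmn and 823 to 1108 in control. For cpx, which encodes complexin of the synapse, they were 3207, 3378, 3462, 709, 3373, 3100.1 and 3274 in fmn and 1016 to 1347 in control. In each of these genes fmn was clearly above control at every time except ZT 12, when it was near or below the control level. The reverse held for 2mit, a gene within the timeout locus, at 152 to 245 on the other fmn arrays and 401 to 686 in control, and the fmn signal of ZT 12 lay within the control range. None of these 4 genes was called rhythmic, although their fitted amplitudes in fmn were 0.83, 0.57, 0.64 and 0.30, and without the ZT 12 array these were 0.14, 0.03, 0.05 and 0.21. The part of these 3 arrays in the rhythms was not tested beyond leaving them out, and rhythm calls described here that depended on it are given with and without them.

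In fmn heads 370 of 8641 probe sets (4.28%) were called rhythmic. They named 331 genes, and by the brightest probe set 316 of 7108 genes (4.45%) were rhythmic. The median amplitude of the 370 was 0.36, a peak-to-trough difference of 1.65-fold, against 0.10 over all probe sets tested. It reached 0.5 in 88 probe sets, 1 in 17 and 1.5 in 8. The peak time had a median SE of 0.656 h. The rhythmic probe sets were of ordinary brightness, with a median fmn signal of 765 against 662 for all those tested. Rhythmic genes lay on each chromosome, from 3.51% of the tested genes on 2R to 5.25% on 3R among the major arms, and 2 of 59 (3.39%) on chromosome 4.

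The peaks were unevenly spread over the day. Dawn held 150 of the 370 (40.5%), which is 1.74% of all those tested. Night held 84 (22.7%, or 0.972% of those tested), dusk 69 (18.6%, or 0.799%) and day 67 (18.1%, or 0.775%), and 128 peaked between ZT 20 and 24. The fewest, 11, fell between ZT 14 and 16. When arrays were centred on their median instead of their 75th percentile, 352 probe sets were called and the split changed to 110 at dawn (31.2%), 186 at night (52.8%), 43 at dusk (12.2%) and 13 by day (3.69%). The median signal was 71.8 at ZT 4 and 71.6 at ZT 8 in fmn, against 55.9 to 61.1 on its other arrays, and the part of this in the 2 splits was not tested. Without the arrays of ZT 4 and ZT 8, 238 probe sets were called, 161 of them among the 370, and the peaks of 360 of the 370 moved by less than 2 h. Without the array of ZT 12, 305 were called and 240 were shared, and all 370 peaks moved by less than 2 h.

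**Figure D2:**
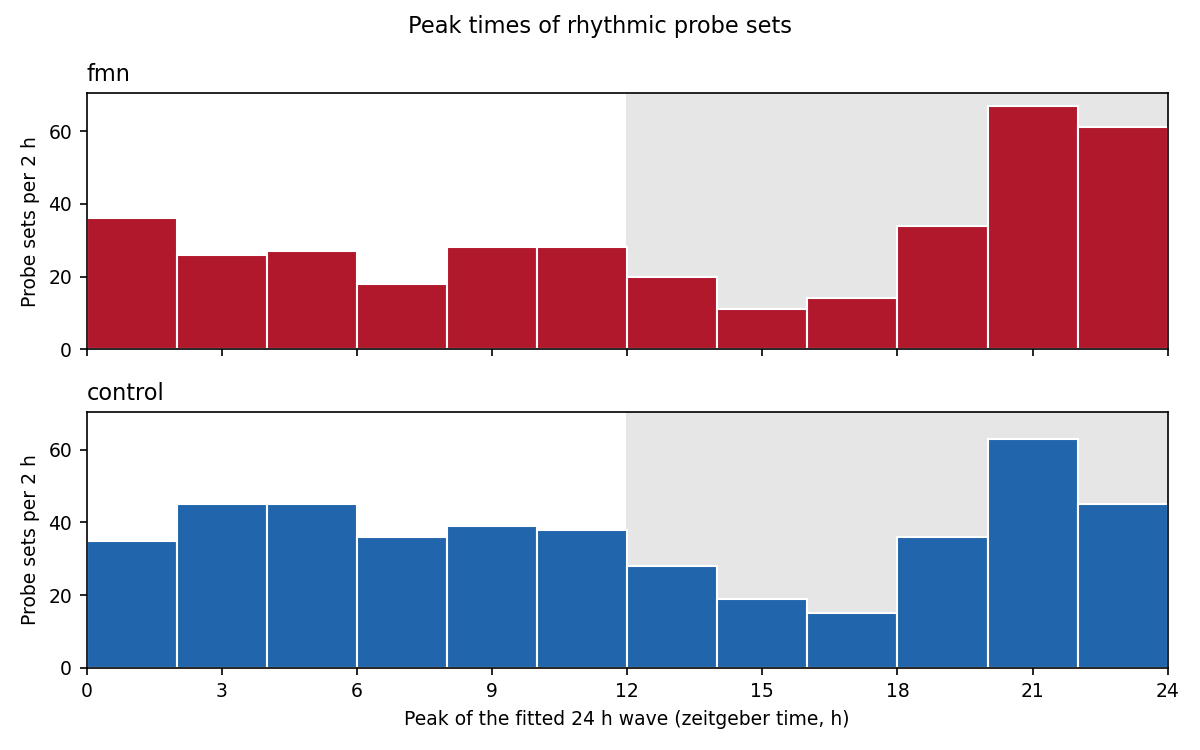
Number of rhythmic probe sets by peak time of the fitted 24 h wave in bins of 2 h, with fmn above control and the dark phase in grey. In fmn the bins from ZT 20 to 24 hold 67 and 61 of the 370 probe sets and the bin from ZT 14 to 16 holds 11.

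The clock loop ran in fmn heads, with 7 of its 8 tested genes called. Clk and per were in opposite phase. Signals of Clk were 1023, 878, 560.1, 285, 327, 867 and 791 from ZT 0 to ZT 24 in fmn, against 665, 813, 495, 276, 246, 744 and 664 in control, lowest at ZT 12 and 16 in both. Signals of per were 207, 201, 834, 1319.6, 1425, 389.8 and 185 in fmn, against 204, 267, 949, 1367, 1676, 470.2 and 215 in control, highest at ZT 12 and 16. The other arm of the loop followed per. Of it, vri, a repressor of Clk, peaked at ZT 12.9 ± 0.291 with an amplitude of 1.58 ± 0.11 in fmn (adjusted p = 6.09e-05, limma), and Pdp1, an activator of Clk, at ZT 13.7 ± 0.509 with 0.50 ± 0.06 (adjusted p = 0.00235, limma). In fmn, cwo, a repressor that competes with Clk at its binding sites, peaked at ZT 10.8 ± 0.682 with an amplitude of 0.47 ± 0.08 (adjusted p = 0.0116, limma), and cry, the blue-light receptor that resets the clock, at ZT 4.46 ± 0.488 with 0.71 ± 0.10 (adjusted p = 0.00568, limma). The level of cyc ranged from 672 to 866 in fmn and from 746 to 848 in control, and its fitted wave in fmn did not pass the test (amplitude 0.08 ± 0.05, adjusted p = 0.616, limma). Its highest fmn signal was that of ZT 12. Without the ZT 12 array Clk and cwo were not called (adjusted p = 0.0799 and 0.0696, limma), while their amplitudes were 0.82 and 0.42, against 0.88 and 0.47 with it. Clk also missed the threshold without the fmn array of ZT 16, as did cry (0.0531, limma), and over all alternatives the adjusted p of limma ranged from 7.93e-06 to 0.142 for Clk, 0.00391 to 0.125 for cwo and 0.00121 to 0.0857 for cry. The dimmer probe set of cwo was not called (adjusted p = 0.193, limma). The same loop genes were called in control, and no gene of the loop differed in rhythm between fmn and control (smallest unadjusted p 0.306, for Pdp1, adjusted p = 0.998, limma).

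**Figure D3:**
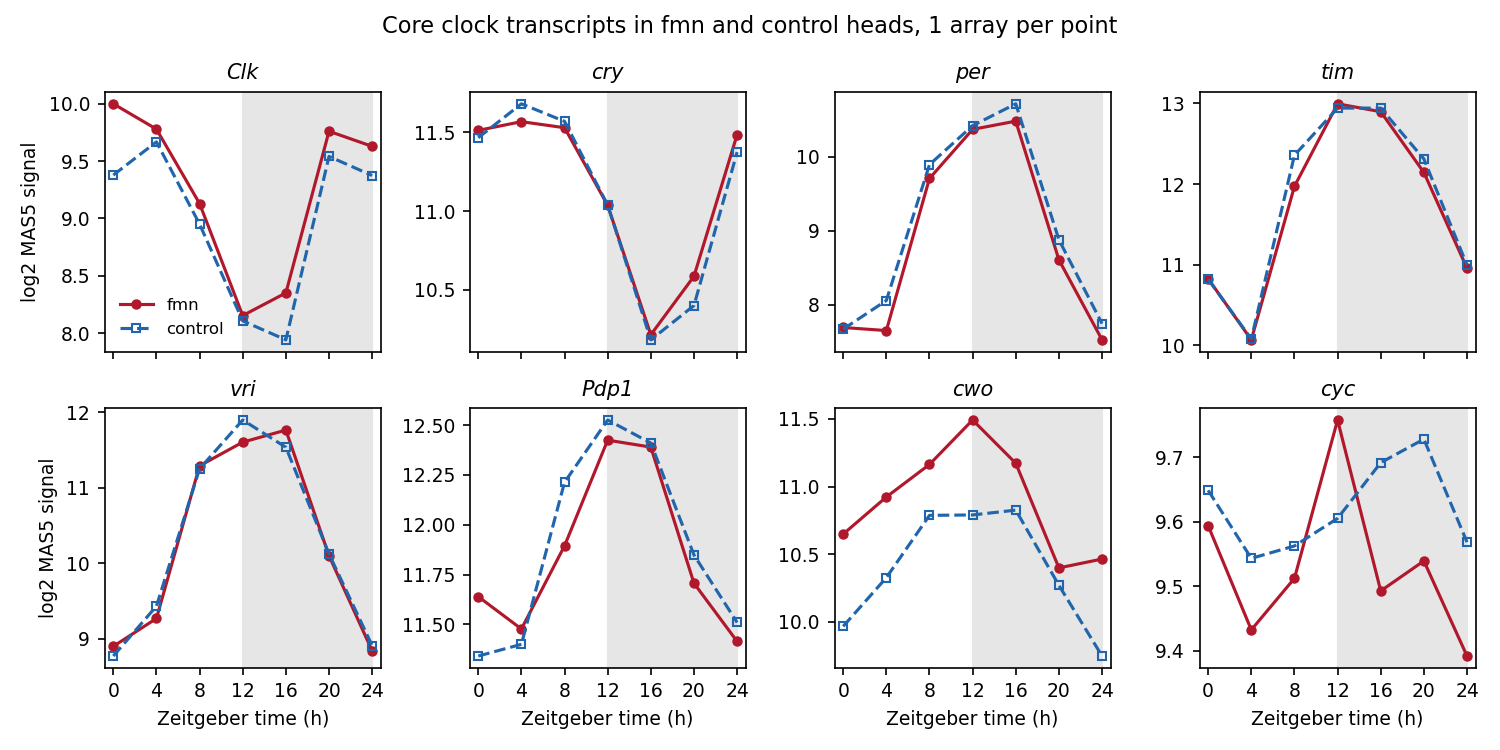
Log2 MAS5 signal of the 8 core clock genes by zeitgeber time, with fmn as red circles, control as blue squares and the dark phase in grey (1 array per point, each panel with its own scale). Clk is lowest and per, tim, vri and Pdp1 are highest at ZT 12 and 16 in both genotypes, while cyc in fmn is highest at ZT 12, the atypical array.

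Of 15 tested kinases, phosphatases and turnover factors that regulate the clock proteins, 2 were called in fmn (13.3%, against 4.45% of all genes). These were Usp8, a deubiquitinase, and tws, a regulatory subunit of protein phosphatase 2A, both with peaks at dusk. The amplitude of tws was 0.33 ± 0.07 at ZT 9.94 ± 0.819 (adjusted p = 0.0366, limma), and the call was lost when any of 8 single arrays was left out, among them the fmn array of ZT 12 (0.118, range over the alternatives 0.016 to 0.244, limma). Cipc, whose mammalian relative binds the CLOCK protein, had signals of 591, 814, 1216, 1474, 1178, 528 and 554 in fmn, against 655, 817, 1238, 1635, 1221, 773 and 778 in control. It was highest at ZT 12 in both genotypes (amplitude 0.74 ± 0.07 in fmn and 0.58 ± 0.07 in control).

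The transcripts of dawn were the largest group, with 123 of 7108 genes (1.73%). Among them were enzymes, eye proteins and glial transporters. Nepl18, a peptidase of the neprilysin family, had signals of 1739, 930.5, 531, 591, 1080.4, 1988 and 1606 in fmn, against 1451, 785, 455, 344, 979.7, 1353 and 1462 in control. It was highest at ZT 20 and lowest at ZT 8 in fmn, with a peak at ZT 21.4 ± 0.321 (adjusted p = 0.000142, limma). Svil encodes supervillin, which binds actin, and had signals of 2585, 1848, 1263, 1426, 1826, 2640.3 and 2523 in fmn, against 2534, 1986, 1399, 1272, 1945, 2467 and 2432 in control. Its amplitude was 0.56 ± 0.05 at ZT 21.8 (adjusted p = 0.000142, limma), while its dimmer probe set did not pass the test (amplitude 0.40, adjusted p = 0.11, limma). The long noncoding RNA CR32553 (lncRNA:CR32553) had signals of 364, 183, 95.4, 62.2, 106, 303 and 258 in fmn, against 329, 211, 107, 110.3, 155, 320.0 and 441 in control. It was highest at ZT 0 and lowest at ZT 12 in fmn. The largest wave in fmn was that of CG34134, with signals of 7159.6, 1778, 390.0, 309, 2310.3, 8093 and 7603 in fmn, against 8313, 2292, 538, 277, 2285, 8833 and 9179 in control, an amplitude of 2.58 ± 0.14 and a peak at ZT 21.8 ± 0.22 (adjusted p = 1.95e-05, limma). Large waves at dawn were also those of Achl, with an amplitude of 2.39 ± 0.28 (ZT 21.3, adjusted p = 0.00154, limma) and of CG42367, with 1.31 ± 0.15 (ZT 22.5, adjusted p = 0.00113, limma). Achl was lowest in fmn at ZT 8 and 12, at 29.3 and 53.4, and highest at ZT 20, at 903.

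Of 14 tested UDP-glycosyltransferases, which attach sugars to small molecules, 7 were called (50%), all with peaks from ZT 23.2 to 2.68. The median amplitude of the 14 was 0.32, against 0.10 over all genes tested. Signals of Ugt49C1 were 1334, 1549, 1148, 917, 756, 1143 and 1425 in fmn, against 1150.0, 1202, 972, 747, 615, 760.4 and 1019.9 in control, highest at ZT 4 and lowest at ZT 16 in both. Ugt35A1 had 345, 421, 276, 244, 214, 269 and 366 in fmn, against 264, 274, 239, 139.9, 123, 182 and 226 in control, so that fmn was higher at each time while the shape was alike. Ugt302C1, Ugt49B1, Ugt36F1 and Ugt36E1 had amplitudes of 0.36, 0.29, 0.42 and 0.25 in fmn. Ugt49B1 missed the threshold without the fmn array of ZT 24 (adjusted p = 0.0569, range 0.00537 to 0.158, limma) and Ugt36E1 without any of 5 fmn arrays (highest 0.0961, without the fmn array of ZT 16, range 0.0179 to 0.274, limma). Without the arrays of ZT 4 and ZT 8, 6 of the 14 were called.

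Other families of detoxification were divided between times. Of 28 glutathione transferases, 4 were called (14.3%), and the median amplitude of the 28 was 0.15. GstZ2, of the class that acts in tyrosine breakdown, had signals of 566, 423, 352, 214, 206, 357 and 549.8 in fmn, against 509, 527, 381, 212, 182, 291 and 427 in control, with a peak at ZT 1.54 ± 0.384 in fmn and ZT 2.98 in control. That shift did not pass the test (unadjusted p = 0.0473, adjusted p = 0.998, limma). GstZ1 peaked at ZT 23.4, GstD10 at ZT 3.53 and GstE14 at ZT 19.9, with amplitudes of 0.27, 0.31 and 0.33. Of the 4, 1 was called without the arrays of ZT 4 and ZT 8. GstE14 missed the threshold without the fmn array of ZT 8 (adjusted p = 0.0542, range 0.0024 to 0.223, limma), and the call of GstZ1 was lost when any single fmn array was left out (highest adjusted p 0.095, without the fmn array of ZT 0, range 0.0167 to 0.195, limma). Of 49 cytochrome P450 genes 6 were called (12.2%, with a median amplitude of 0.15 over the 49), 3 with peaks at dawn, 1 by day and 2 at night. Cyp6a21 had signals of 384, 342, 256, 172, 280.4, 370.2 and 402 in fmn, against 405, 408, 291, 201, 229, 379 and 545 in control, with a peak at ZT 23.4 ± 0.616 in fmn. Cyp4d21 had 3569.6, 3007, 3383, 5109, 6878, 6414 and 4234 in fmn, against 4887, 3586, 3769, 6198, 7249.6, 7652 and 5282 in control, with a peak at ZT 16.9 ± 0.321 in fmn, in the first part of the night (adjusted p = 0.000363, limma). Fmo-1, a flavin monooxygenase named after its values were seen, peaked at ZT 21.6 in fmn with an amplitude of 0.58 ± 0.07 (adjusted p = 0.00155, limma).

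In the breakdown of amino acids and the synthesis of lipids and purines, 2 of 25, 2 of 21 and 2 of 9 tested genes were called (8%, 9.52% and 22.2%, against 4.45% of all genes). Hpd, which acts before GstZ2 in tyrosine breakdown, had signals of 3768, 4087, 3878, 2770.3, 2495, 3307 and 4781 in fmn, against 3294, 3598, 2884, 1772, 1396, 1878 and 3119 in control. The fitted amplitude was 0.41 ± 0.06 in fmn and 0.72 ± 0.07 in control, and the difference in rhythm had an unadjusted p of 0.013 but an adjusted p of 0.998 (limma). The trough was shallower in fmn, 2495 at ZT 16 against 1396 in control. Hpd missed the threshold in fmn without the array of ZT 16 (adjusted p = 0.0667, range 0.00294 to 0.11, limma). mdy, a diacylglycerol acyltransferase of fat storage, had signals of 1917, 1499.6, 1148, 854, 1131, 1892 and 2077 in fmn, against 1669, 1158, 990.0, 606, 902, 1362 and 1424 in control, and peaked at ZT 23.4 ± 0.522 in fmn with an amplitude of 0.61 ± 0.07. bgm, an acyl-CoA synthetase of very long fatty acids, peaked by day at ZT 4.15 with 0.46, and its call was lost without the fmn array of ZT 4, 16 or 20 (highest adjusted p 0.141, without the fmn array of ZT 16, range 0.00742 to 0.183, limma). Prat2, of purine synthesis, had a peak at ZT 1.22 in fmn and ZT 4.9 in control, with an unadjusted p of 0.00323 for the difference in rhythm and an adjusted p of 0.998 (limma). Its own call in fmn (adjusted p = 0.0466, limma) was lost when any single fmn array was left out (highest 0.131, without the fmn array of ZT 24, range 0.0205 to 0.266, limma). Of energy metabolism, none of 11 glycolysis genes, 16 genes of the citric acid cycle and 57 genes of the respiratory chain and ATP synthase was called by limma, and 2, 2 and 1 of them had an unadjusted p under 0.05.

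Of 23 tested phototransduction genes 6 were called (26.1%), 5 with peaks at dawn and 1 at dusk, 12 had an unadjusted p under 0.05, and the median amplitude was 0.15. inaD, the scaffold that holds the transduction proteins together, had signals of 6112, 5331, 4565, 3757, 4086, 6051 and 6322 in fmn, against 7382, 6677, 6070.3, 4775, 4883, 6687 and 7313 in control. It was highest at ZT 24 and lowest at ZT 12 in fmn (peak ZT 23.9 ± 0.556, amplitude 0.38 ± 0.05, adjusted p = 0.00327, limma). trpl, a cation channel opened by light, had signals of 9992, 12147, 15042, 17243, 13571, 10771 and 11190.1 in fmn, against 11511, 15370.1, 18924, 20248, 15972, 11950.4 and 11679 in control, highest at ZT 12 in both (fmn peak ZT 11 ± 0.545, amplitude 0.33 ± 0.04, adjusted p = 0.00322, limma). The genes pinta and ninaG peaked before lights-on in fmn. For pinta, which binds retinoids, the peak was at ZT 21.5 with an amplitude of 0.54. For ninaG, an oxidoreductase of chromophore formation, it was at ZT 22.1 with 0.31. In control ninaG was not called (amplitude 0.16, adjusted p = 0.228, limma). A further 3 eye genes were named after their values were seen. The retinol dehydrogenase rdhB had signals of 5105, 3376, 3080.2, 3073, 4529, 6344 and 5989 in fmn, against 4758, 3359, 3197, 3048, 4880.4, 5799 and 4941 in control, with a peak at ZT 20.9 ± 0.423 in fmn. Pdh, a dehydrogenase of the eye, peaked at ZT 0.704 and Cpn, a calcium-binding protein of photoreceptors, at ZT 23.9, with amplitudes of 0.36 and 0.37. inaC, the eye's protein kinase C, and laza, a lipid phosphatase, were called with amplitudes of 0.33 and 0.27, but laza lost the call without any 1 of 13 arrays (highest adjusted p 0.123, without the fmn array of ZT 16, range 0.0118 to 0.311, limma) and inaC without the fmn array of ZT 0, 16 or 24 (highest 0.0853, without the fmn array of ZT 24, range 0.00837 to 0.195, limma). pinta was not called without the fmn array of ZT 8 (0.0594, range 0.000204 to 0.102, limma), nor ninaG without that of ZT 8, 12 or 20 (highest 0.077, without the fmn array of ZT 12, range 0.00828 to 0.161, limma). The summed signal of 7 photoreceptor markers ranged from 86181 to 101877 over the fmn arrays and from 103431 to 120807 over the control arrays, lowest at ZT 4 in fmn and ZT 0 in control, which are arrays that held testis transcripts.

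Of the rhythmic genes of glia, 4 peaked at dawn and 1 at dusk. Of 20 tested, these 5 were called (25%), against 4.45% of all genes, and the median amplitude of the 20 was 0.16. e (ebony), which joins beta-alanine to dopamine in glia, had signals of 348, 250.4, 177, 174, 194, 313 and 347 in fmn, against 488, 317, 254, 228, 256, 388 and 454 in control, with a peak at ZT 23.1 ± 0.429 and an amplitude of 0.57 ± 0.06 in fmn (adjusted p = 0.000632, limma). It was the only one called of 10 genes of dopamine metabolism (10%). Gat, which takes GABA up into astrocyte-like glia, had 890.1, 635, 506, 499, 662, 751 and 704 in fmn, against 724, 535, 487, 504, 609, 712 and 582 in control. alrm, a marker of astrocyte-like glia, had 1501, 953, 796, 795, 1127, 1243 and 1342 in fmn, against 1418, 773, 824, 772, 1116, 1343 and 1509 in control. All of these were lowest at ZT 8 or 12 in fmn. wun2, a lipid phosphatase, peaked with them at ZT 22.3, while bnb, a transcript of embryonic glia, peaked at ZT 13.4. Of 25 solute transporters 3 were called (12%), with a median amplitude of 0.14 over the 25. rumpel, a sodium-coupled transporter, had 1093, 814, 513, 562, 615, 854 and 912 in fmn, against 1050.2, 741, 565, 589, 682, 918 and 906 in control (fmn peak ZT 23.2 ± 0.514, adjusted p = 0.00191, limma). Its relative bumpel peaked at ZT 23.9, and lost its call without any of 10 arrays (highest adjusted p 0.123, without the fmn array of ZT 24, range 0.0234 to 0.248, limma). Orct2 peaked at dusk, at ZT 10.2, and lost its call without any of 5 fmn arrays (highest 0.117, without the fmn array of ZT 12, range 0.0185 to 0.23, limma). SLC5A11, a relative of rumpel named after its values were seen, peaked at ZT 21.7 with an amplitude of 0.45 ± 0.05 in fmn. The calls of e, wun2, rumpel and SLC5A11 were kept when any single array was left out. Gat lost its call without the fmn array of ZT 8 (adjusted p = 0.0515, range 0.0041 to 0.108, limma), alrm without that of ZT 0, 8, 12 or 24 (highest 0.076, without the fmn array of ZT 8, range 0.0011 to 0.161, limma) and bnb without that of ZT 4, 12, 20 or 24 (highest 0.111, without the fmn array of ZT 12, range 0.0106 to 0.213, limma). Without both ZT 4 and ZT 8, 3 of the 20 glial genes were called.

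Fewer genes peaked by day, 58 of 7108 (0.816%). Jhe, which breaks down juvenile hormone, had signals of 116, 198, 140.3, 45.5, 20.4, 34.6 and 108 in fmn, against 124, 165, 178, 21.7, 15.3, 46.3 and 145 in control. It was above 100 in the light and at ZT 24 and below 50 from ZT 12 to 20 in fmn, where its signals were under the floor of the filter, with a peak at ZT 4.42 ± 0.385 (adjusted p = 0.00113, limma). Gasp, a chitin-binding protein, had signals of 1907, 2373, 2105, 1525, 1227, 1465 and 1803 in fmn, against 1762, 2110.2, 1851, 1485, 1022, 1279 and 1709.5 in control, with an amplitude of 0.45 ± 0.05 at ZT 4.57 in fmn. phu had 1490.3, 1086, 591, 160.3, 101, 256 and 723 in fmn, against 524, 612, 494, 111, 47.6, 69.3 and 161 in control. It was higher in fmn than in control at each time, and the ratio was highest at ZT 24. Its fitted peak was ZT 3.01 ± 0.482 in fmn and ZT 4.77 in control, a difference in rhythm that did not pass the test (unadjusted p = 0.0579, adjusted p = 0.998, limma). Signals of phu did not return to the ZT 0 level at ZT 24, with 1490.3 and 723 in fmn and 524 and 161 in control. This was among the largest falls between these times in fmn, and a 24 h wave does not describe it. Of 17 cuticle genes, whose median amplitude was 0.21, 4 were called in fmn (23.5%, against 4.45% of all genes). Cpr72Ec and TwdlT peaked at ZT 1.8 and 2.74, Cpr49Af at ZT 5.64 and Cpr11B at ZT 9.22. None of these calls was firm. Cpr72Ec lost it without the fmn array of ZT 0, 16 or 24 (highest adjusted p 0.0597, without the fmn array of ZT 16, range 0.00491 to 0.144, limma) and TwdlT without that of ZT 0, 12 or 16 (highest 0.089, without the fmn array of ZT 16, range 0.0115 to 0.219, limma). Cpr49Af lost it without any of 9 arrays (highest 0.146, without the fmn array of ZT 20, range 0.03 to 0.425, limma) and Cpr11B without any of 6 (highest 0.0964, without the fmn array of ZT 12, range 0.0129 to 0.236, limma). The fmn arrays of the day are those of ZT 4 and ZT 8, and the day count was 48 probe sets without them, against 67 with all arrays. Some day peaks rested on them. Jhbp5, of the takeout family of hormone-binding relatives, had signals of 258, 496, 352, 126, 102, 138 and 203 in fmn, against 502, 258, 164, 129.9, 129, 119 and 221 in control, highest at ZT 4 in fmn and ZT 0 in control, which are the arrays with testis transcripts. dmGlut, a transporter, had 233, 323, 522, 216, 206, 145 and 213 in fmn, against 324, 368, 387, 296, 273, 230.4 and 251 in control, highest at ZT 8 in fmn, the array with ovary transcripts. Without ZT 4 and ZT 8 their adjusted p was 0.313 and 0.393 (ranges 3.45e-06 to 0.313 and 0.000999 to 0.393, limma). Single fmn arrays also ended these calls, those of ZT 4, 8, 16 or 20 for Jhbp5 (highest adjusted p 0.144, limma) and of ZT 8 or 20 for dmGlut (highest 0.0725, limma).

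At dusk, 61 of 7108 genes peaked (0.858%), among them the clock repressors. Vinc, which encodes vinculin and ties actin to sites of adhesion, had signals of 1650.3, 2468, 3686, 3469.8, 1999, 1431 and 1693 in fmn, against 1675, 2619, 3603, 3648, 2224, 1756 and 1719.5 in control. It was highest at ZT 8 in fmn and ZT 12 in control, with fitted peaks at ZT 9.1 ± 0.259 and ZT 9.56 (fmn adjusted p = 6.09e-05, limma). gol, a ubiquitin ligase, had 726, 838, 3059, 5410.4, 3522, 1857 and 696 in fmn, against 817, 986, 4011, 7051, 4088, 2016 and 741 in control, a fitted span of 7.94-fold in fmn. Its dimmer probe set did not pass the test (adjusted p = 0.06, limma). Of 18 potassium channel genes 2 were called (11.1%, against 4.45% of all genes). Slob, whose protein binds the Slowpoke potassium channel, had 1377, 1128, 2388, 3579, 3721, 2109.5 and 1527 in fmn, against 1572, 1409.6, 3294, 4357, 3754, 2303 and 1436 in control, with a peak at ZT 14.2 ± 0.39 in fmn and ZT 13.1 in control. The dimmer probe set of Slob was not called in fmn (amplitude 0.34, ZT 10.2, adjusted p = 0.22, limma). The inward rectifier Irk1 had 593, 725, 864, 966, 829, 600.3 and 571 in fmn, against 620.3, 705, 843, 892, 933, 758 and 609.6 in control (amplitude 0.36 ± 0.04, adjusted p = 0.00133 in fmn, limma). Of 10 genes induced by neuronal activity 2 were called (20%). These were puc, a phosphatase of JNK signaling, and CG14186, with peaks at ZT 10.7 and 10.8 in fmn. CG14186 was not called without the fmn array of ZT 0 or 24 either. Without the ZT 12 array the adjusted p was 0.0672 for puc and 0.0969 for CG14186 (ranges 0.00523 to 0.136 and 0.006 to 0.159, limma). Drsl5, a relative of the antifungal peptide drosomycin, had 6543, 6847, 8952, 9383, 8653, 7557 and 6131 in fmn, against 6307, 7380.4, 8981, 9958, 8045, 7040.0 and 5874 in control. It was the only one called of 13 antimicrobial peptide genes (7.69%).

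**Figure D4:**
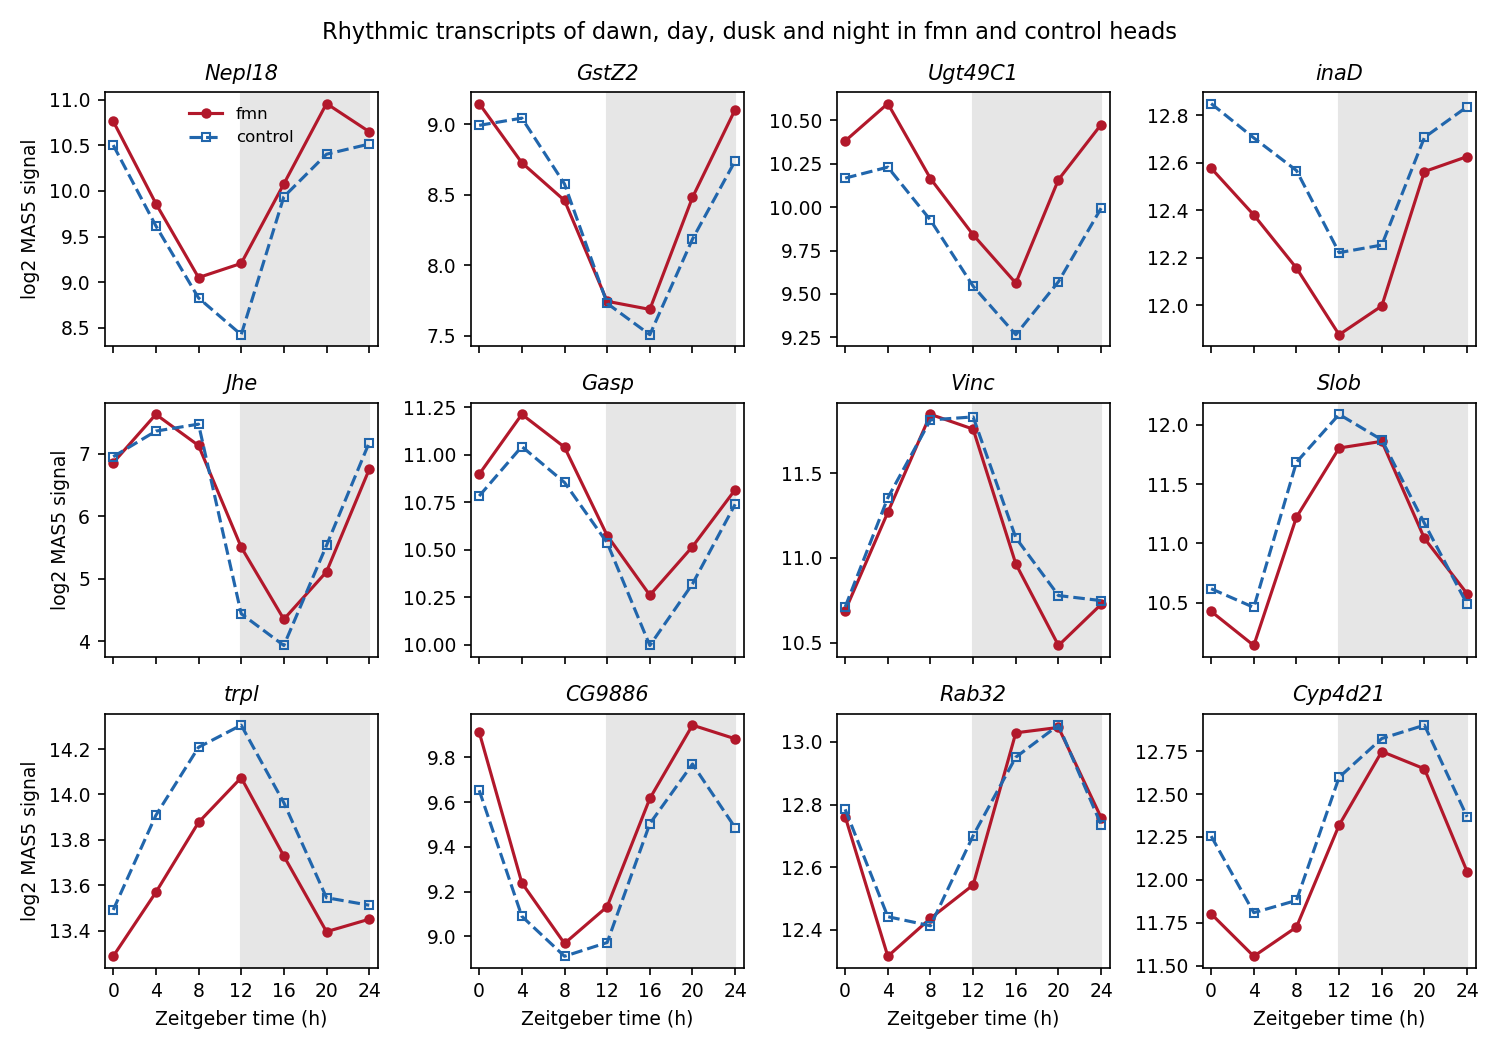
Log2 MAS5 signal by zeitgeber time of 12 rhythmic genes, from dawn (Nepl18, GstZ2, Ugt49C1, inaD) through day (Jhe, Gasp) and dusk (Vinc, Slob, trpl) to night (CG9886, Rab32, Cyp4d21), with fmn as red circles, control as blue squares and the dark phase in grey (1 array per point, each panel with its own scale). Fitted peaks in fmn run from ZT 21.4 for Nepl18 at dawn to ZT 16.9 for Cyp4d21 at night, and inaD and trpl lie lower and Ugt49C1 higher in fmn at each time.

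At night, 74 of 7108 genes peaked (1.04%). Among them, sn encodes fascin, which bundles actin, and had signals of 3162, 2013, 1863, 1883, 2774, 3379.7 and 2928 in fmn, against 2630.4, 1764, 1495, 1754, 2439, 2702 and 2512 in control (fmn peak ZT 20.6 ± 0.341, adjusted p = 0.000319, limma). Rab32, a small GTPase of pigment granules, had 6943, 5096, 5543, 5968, 8358, 8458 and 6927 in fmn, against 7056, 5563, 5452, 6656, 7919, 8502 and 6817 in control. CG5853 had 1711, 792, 847, 1752, 2508, 2632 and 1837 in fmn, against 1210.0, 668, 733, 1197, 1893, 1948 and 1336 in control, lowest at ZT 4 and highest at ZT 20 in both genotypes. CG8419 had 397, 187, 106, 134, 468, 511 and 408 in fmn, against 440.1, 172, 135, 177, 569, 552 and 430.4 in control, a fitted span of 5.68-fold in fmn. These 4 genes kept their call when any single array was left out. All 4 rhythmic genes of the 71 tested for mitochondrial ribosomal proteins peaked at night, mRpL39, mRpL41, mRpL46 and mRpL11 at ZT 15.2, 18.3, 18.6 and 20.2, with amplitudes of 0.22, 0.19, 0.39 and 0.26. That is 5.63% of the list, against 4.45% of all genes, and the median amplitude of the 71 was 0.12. None of the 4 was called without the arrays of ZT 4 and ZT 8. Single arrays ended the call of mRpL46 (fmn ZT 4 or 8, highest adjusted p 0.0791, range 0.004 to 0.699, limma) and, for any of 12 arrays, those of mRpL39 and mRpL41 (highest 0.123 and 0.174, ranges 0.0266 to 0.246 and 0.025 to 0.63, limma). On those arrays mRpL46 had 441 and 446, against 595 to 723 at the other fmn times and 506 to 666 in control. Pepck2, of glucose synthesis and named after its values were seen, had 1136, 808, 507, 759.6, 1382, 1409 and 1779 in fmn, against 1069, 536, 473, 522, 1162, 1650.1 and 1763 in control, and was also not called without these arrays, or without either alone (adjusted p = 0.354 without both, range 2.02e-05 to 0.354, limma).

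Several genes were rhythmic by more than 1 probe set, or by only some of theirs. Of the genes with several tested probe sets and at least 1 rhythmic in fmn, 43 in all, 6 had every probe set called, and 15 genes were called only by a dimmer one. The junction gene pyd, a relative of ZO-1, had all 4 called, with amplitudes from 0.21 for the brightest (mean fmn signal 2451) to 0.80 for the next (mean 954; 0.43 without the array of ZT 12), and peaks from ZT 20.4 to 23.5. Both probe sets of fru, a transcription factor of courtship, were called, at ZT 20.8 and 19.7 with an amplitude of 0.39 for each. Of 3 probe sets of dlg1, a scaffold of septate junctions and synapses, only the dimmest was called (amplitude 0.47, ZT 19.6, adjusted p = 0.00078, limma), against 0.31 and 0.04 for the brighter ones. For mbl, a splicing regulator, 3 of 4 were called, and the brightest had signals of 713, 560.2, 383, 173, 592, 691 and 643 in fmn, against 317, 342, 227, 242, 338, 375 and 359 in control. Its value at ZT 12 was the lowest of all 14 arrays, and its amplitude was 0.79 with that array and 0.46 without it. The brightest probe set lost its call without any of 6 fmn arrays in pyd (highest adjusted p 0.0776, without the fmn array of ZT 20, range 0.0087 to 0.239, limma), without that of ZT 0, 8, 12 or 20 in fru (highest 0.194, without the fmn array of ZT 8, range 0.00335 to 0.285, limma) and without that of ZT 0, 20 or 24 in mbl (highest 0.0773, without the fmn array of ZT 20, range 5.43e-06 to 0.219, limma). These genes were chosen after their values were seen. Which transcript each probe set reads was not analysed here.

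Lists of synaptic, signaling, protein turnover and immune genes had few or no rhythmic members in fmn. Over all genes 4.45% were called, so lists this small would hold few, and these counts do not set the groups apart. In some alternatives 1 member was called. Without the fmn arrays of ZT 4 and ZT 8 this held for acetylcholine receptors and for insulin and TOR signaling. Under median centring it held for amine receptors and cyclic AMP signaling, among others. Of 22 genes known to affect fly sleep, 9 receptors of biogenic amines, 25 genes of synaptic vesicles, 13 subunits of acetylcholine receptors, 16 sodium and calcium channels, 17 genes of cyclic AMP signaling and 19 of insulin and TOR signaling, none was called by limma, and 2, 3, 3, 0, 0, 1 and 1 had an unadjusted p under 0.05. Over all genes tested 1307 of 7108 did. Among the sleep genes the median amplitude was 0.10, equal to that of all genes tested (0.10). The 3 amine receptors with an unadjusted p under 0.05 were 5-HT2A, Dop1R1 and DopEcR. By limma none was called of 32 cytosolic ribosomal proteins, 27 proteasome subunits, 31 tRNA synthetases, 18 heat shock chaperones, 24 autophagy genes and 26 genes of immune recognition and the Imd pathway, of which 0, 0, 3, 1, 4 and 4 had an unadjusted p under 0.05. Of 25 neuropeptide genes 1 was called (4%), Nplp3. Its signals were 15178, 14065, 12967, 11465, 13022, 14668 and 14905 in fmn, against 17605, 16422, 16271, 13221, 14191, 14772 and 17065 in control. Its amplitude of 0.19 ± 0.04 was among the smallest called, and the call was lost when any single fmn array was left out (highest adjusted p 0.159, without the fmn array of ZT 12, range 0.0141 to 0.24, limma).

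The rhythmic transcripts of fmn were set beside the same probe sets in control, whose arrays had no part in the coefficients of fmn although both share the estimate of spread. In control 444 probe sets (5.14%) and 384 genes (5.4%) were rhythmic. Of the 370, 328 (88.6%) had an unadjusted p under 0.05 in control, against 18.3% of all probe sets tested. The control peak was within 2 h for 317 (85.7%) and more than 6 h away for 5, with a median difference in peak time of -0.14 h (fmn minus control). Their median amplitude was 0.36 in fmn and 0.32 in control, where a lower value follows in part from choosing them in fmn. In the direct test of rhythm, fmn against control, 0 of 8641 probe sets (0%) passed, with a smallest adjusted p of 0.998 (limma). On simulated arrays of this design, with waves in fmn only, this test called 3 of 50 at an amplitude of 0.25. It called 38 of 50 at 0.5 and 48 of 50 at 1. All these waves were simulated together, and the adjustment is stricter when fewer probe sets differ. With few true differences a smaller share would be called, and this was not simulated. Small differences would thus be missed, larger ones could be, and 0 calls do not show that the rhythms are equal. Without adjustment 357 (4.13%) had p under 0.05. With the time point as a block 0 passed as well (smallest adjusted p 0.965, limma), and 435 had an unadjusted p under 0.05. In fmn 125 probe sets were called that were not called in control, and 104 of them had a control peak within 3 h. A call in 1 genotype alone therefore does not show a difference in rhythm.

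**Figure D5:**
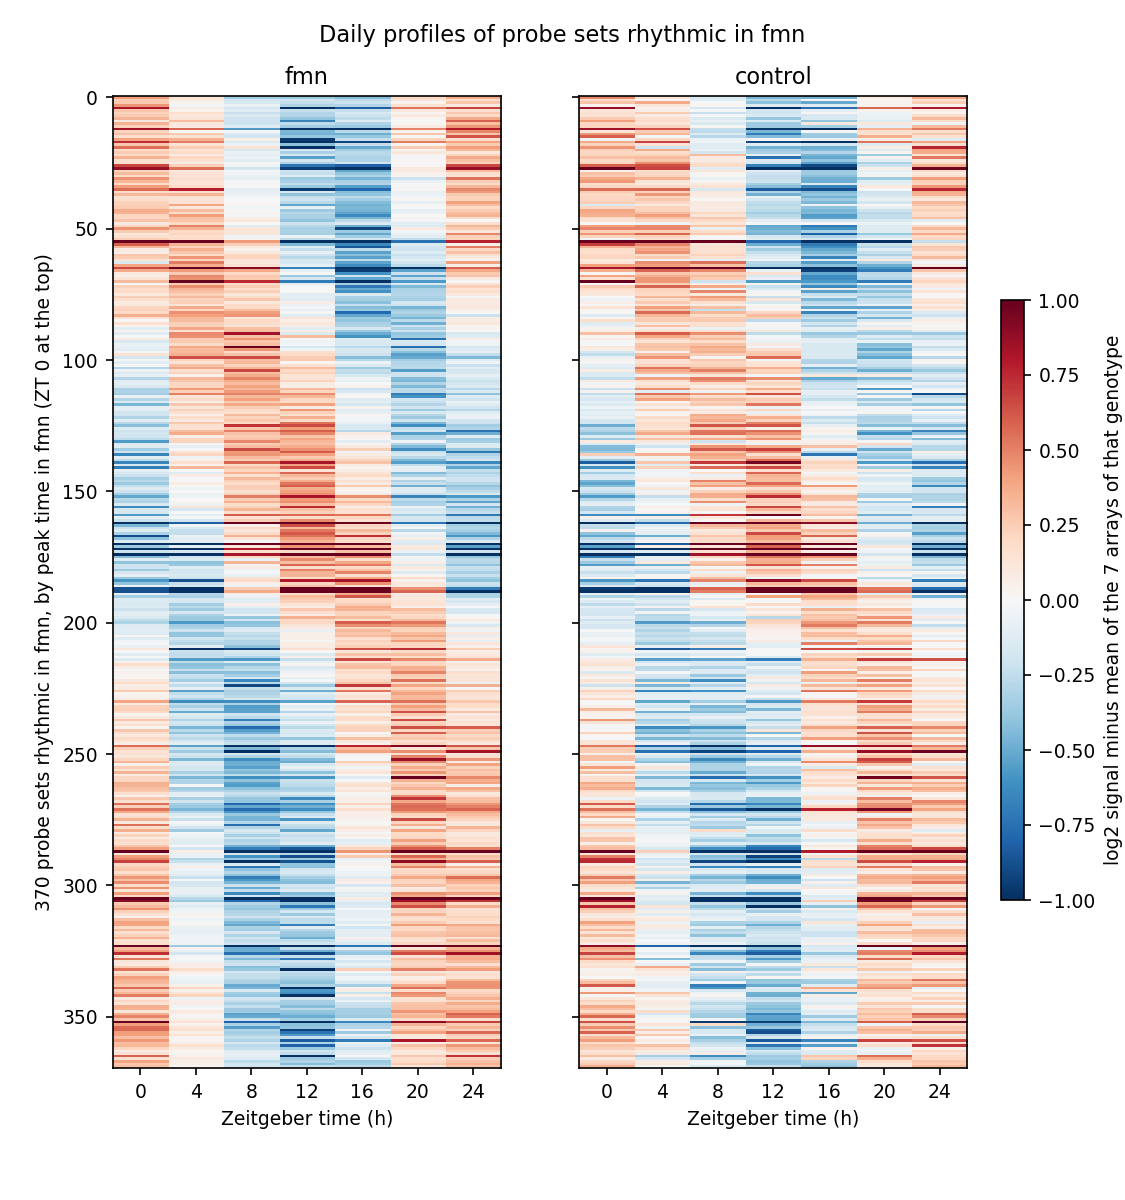
Log2 signal minus the mean of the 7 arrays of its genotype for the 370 probe sets rhythmic in fmn, ordered by peak time in fmn, with fmn on the left and control on the right. Columns are zeitgeber times and each row is 1 probe set, with red above and blue below the mean. The bands run at the same times in both genotypes, and the largest share of rows, 150, peaks at dawn.

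Genes near the head of the ranking by difference in rhythm had modest amplitudes. The first gene was l(2)k10201, with 0.26 at ZT 2.94 in fmn and 0.29 at ZT 16.8 in control, called in neither (difference unadjusted p = 0.000397, adjusted p = 0.998, limma). CG10359, called in both, had 0.23 at ZT 1.38 and 0.48 at ZT 4.21 (unadjusted p = 0.000748, adjusted p = 0.998, limma). Lower in the ranking, TpnC73F, a troponin C, had signals of 183, 269, 309, 262, 206, 188 and 199.7 in fmn, against 222, 200.2, 207, 247, 205, 219.8 and 212 in control. It was called in fmn (amplitude 0.38 ± 0.06, ZT 8.28, adjusted p = 0.00705, limma) and not in control (amplitude 0.04 ± 0.05), but the difference had an adjusted p of 0.998 (unadjusted 0.00172, limma). Its highest fmn signals were those of ZT 4, 8 and 12, the 3 arrays that stood apart, and it was not called without ZT 8 (adjusted p = 0.058, limma) or without both ZT 4 and ZT 8 (0.172, range 0.00359 to 0.209, limma). In tyf, a factor that promotes translation of per, signals were 795, 701, 706, 591, 717, 719.6 and 637 in fmn, against 557, 676, 740.0, 834, 597, 540.5 and 522 in control. They were lowest at ZT 12 in fmn, the atypical array, and highest at ZT 12 in control (unadjusted p = 0.00131, adjusted p = 0.998, limma). The difference in tyf is not given here without that array. In fmn neither this probe set nor the dimmer ones of tyf were called (adjusted p = 0.578, 0.701 and 0.342, limma). Mesh1 had 218, 235, 229, 231, 225, 233 and 214 in fmn, against 265, 240.4, 213, 181, 202, 248 and 280.3 in control, flat in fmn with an amplitude of 0.02 ± 0.04 (control 0.28 ± 0.04, difference unadjusted p = 0.000437, adjusted p = 0.998, limma).

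A pair of checks looked beyond a single wave of 24 h. A component of 12 h, for genes with 2 peaks a day, was found in 0 of 8641 probe sets (0%) in fmn (smallest adjusted p 0.955, limma), and 444 had an unadjusted p under 0.05. This fit left 4 residual degrees of freedom, and what it could detect was not examined. The 0 calls do not show that such waves are absent. With arrays centred on their median, 110 were called. First in this ranking was Delta, a ligand of Notch, with a 12 h amplitude of 0.37. Between ZT 0 and ZT 24, 815 probe sets (9.43%) differed by at least 1.25-fold in fmn, 380 higher and 435 lower at ZT 24, and 15 (0.174%) by at least 2-fold, against 913 (10.6%) and 30 (0.347%) in control. Among the 370 rhythmic probe sets 23 differed by at least 1.25-fold in fmn. A 24 h wave has the same fitted value at ZT 0 and ZT 24. The call therefore favours probe sets that agree at these times, and this count does not measure how well they repeat. The largest rises at ZT 24 were those of Gnmt, a glycine methyltransferase, with 1392, 1274, 1667, 2654, 2411, 2787 and 3768 in fmn, against 1049, 812, 874, 744, 2458, 1804 and 1717 in control, and of CG15369, with 113, 138, 103, 216, 368, 593 and 395 in fmn, against 100.2, 72.4, 46.7, 58.6, 209, 193 and 289 in control. In fmn, Gnmt climbed across the sampled times with no return at ZT 24, and its fitted wave did not pass the test (adjusted p = 0.501, limma).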

How the data were processed

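The deposited values are intensity values, the signal of each probe set of Affymetrix Drosophila Genome 2.0 arrays as the authors computed it with MAS5, on a linear scale. The version and scaling target of MAS5 are not given in the sources used here, and Present calls were not analysed. Of 18769 probe sets, 13647 named 1 gene in the platform annotation, 402 several and 4720 none, and 183 control probe sets were left out of the tests. Signals were converted to log2 and centred on the 75th percentile of each array, which lay between 563 and 584 in fmn and between 566 and 575 in control. The filter removed each probe set whose signal was below 100 on 7 or more of the 14 arrays, the signal part of the study's filter, and 8641 stayed. The number of arrays limits the precision.

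limma 3.58.1 in R 4.3.3 fitted a mean, a cosine and a sine of 24 h per genotype (8 residual degrees of freedom), with F tests for each rhythm and for its difference between genotypes, and Benjamini-Hochberg adjustment over all 8641. Peak errors come from the delta method. The scripts were tested on simulated data. Members and the 60 gene lists were chosen with earlier results of these data known. Genes were named by a rule: DAT, the clock loop, the 8 smallest p in each time window, the 10 largest amplitudes, up to 4 called members per list, the smallest p for a difference in rhythm and for a 12 h wave, the largest changes between ZT 0 and ZT 24, and the highest organ transcripts. Others are said to be chosen after their values were seen, which also holds for elav, cpx, ftz-f1, 2mit, laza, bnb, Jhbp5, dmGlut, the 3 amine receptors and the Ugt genes beyond the first 4. Deviations from the genotype mean correlated between arrays of the same time at all 7 times (0.13 to 0.50). The fmn array of ZT 0 correlated more with control ZT 24 (0.37, against 0.13). Those of ZT 8 and ZT 16 did so with control ZT 12 (0.447 against 0.424, and 0.306 against 0.242). A daily rhythm in both genotypes gives such correlations too, so they do not show that arrays were paired. The time point was used as a block in an alternative. Alternatives changed the scaling, filter, pseudocount (32), variance model, threshold and the arrays used.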

Additional observations from a re-analysis of the deposited data

Results flagged for a closer look

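Within each genotype, arrays and named genes were searched for 1 array far from the other 6, at a threshold that chance passes in about 1 of 20 groups. Of 22 measures of the arrays, 8 had one. In fmn these were the testis and accessory gland list at ZT 4 (median log2 signal 6.67), the ovary list at ZT 8 (6.52), the neuron list at ZT 12 (10.5), the root mean square residual of the ZT 12 array from the fitted waves (0.146 on the log2 scale) and its 77 probe sets at least 2-fold from the mean of the other arrays. In control they were the testis list at ZT 0 (6.50), the midgut enzyme list at ZT 0 (5.33) and the median signal at ZT 0 (69.7). Of 125 named genes checked, 1 had one, Pkc53E, a protein kinase C. Its signal was 827 at ZT 12 in fmn, against 1536 to 2449 at the other fmn times and 1005 to 1705 in control. The 125 did not include ftz-f1, elav, cpx, 2mit, Acp98AB and Vm34Ca, each of which had 1 fmn array far from the rest.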

How the results depend on the processing

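The count of 370 rhythmic probe sets in fmn (150 at dawn, 67 by day, 69 at dusk and 84 at night) stayed within 1.5 times under no centring (380), quantile normalization (426), a pseudocount of 32 (397), a trend in the variance (500) and a filter on fmn arrays alone (350). It was 59 without a filter (24 at dawn, 6 by day, 13 at dusk, 16 at night), 163 in the fmn arrays alone (70, 23, 31 and 39), 219 without ZT 24 (88, 38, 42 and 51), 238 without the fmn arrays of ZT 4 and ZT 8 (88 at dawn, 42 at dusk) and 88 when a 2-fold span was also asked (37, 14, 17 and 20). Leaving out also the control array of ZT 0, a setting chosen after seeing the data, gave 186 (70, 34, 33 and 49). Median centring gave 13 by day, 43 at dusk and 186 at night, and the trend 131 at night. Leaving out single arrays gave 213 to 370 in fmn (dawn 89 to 140, day 26 to 66, dusk 46 to 70, night 42 to 94), lowest without the fmn array of ZT 20. The 444 rhythmic probe sets of control were 215 under median centring, 73 without a filter, 256 without ZT 24, 192 without the 3 organ-bearing arrays and 222 to 504 with single arrays left out. The difference in rhythm stayed at 0 calls in each alternative in which it was counted, also with the time point as a replicate block (0). The 12 h component had 110 calls under median centring. It had 0 with no centring, with quantile normalization, in the fmn arrays alone and without the fmn array of ZT 12. Its count was not taken in the other alternatives. At least 1.25-fold between ZT 0 and ZT 24 in fmn was met by 8377 probe sets without a filter. The causes of these changes were not tested. Of 106 named rhythmic genes, 33 were called in every alternative, 56 with each single array left out, and 0 reversed. The motif search in promoters was not run.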
